A study of Rattus norvegicus with 9 samples.

Results

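In rat hypothalamic tissue, 153 genes stood lower 7 d after PEL surgery than in Control tissue and than 1 d after the surgery, with every 7 d library below every other library. They were chosen by their measured levels from a table of 34784 rows, and the values that chose them are given here as a description. Levels are given as CPM, the count of a gene scaled to the same total count in each library. A gene was taken if its Control mean was at least 5 CPM, if its 7 d mean lay at least 0.4 below both the Control mean and the 1 d mean on the scale log2(CPM + 1), and if all 3 of its 7 d libraries lay below the other 6 libraries. The rule also sets aside 2 IDs, of which 1 met its conditions.

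The tissue held the supraoptic nucleus (SON) and the paraventricular nucleus (PVN) of rats of the S-D strain, and bulk RNA was sequenced from 3 libraries labelled Control, 3 labelled PEL_1d and 3 labelled PEL_7d. The labels use PEL without spelling it out, and the published study uses it for an electrical lesion of the pituitary stalk. How the Control animals were treated, how old the animals were, and whether each library stands for a separate animal is not stated in the labels. P-values therefore set differences between groups against the spread of these libraries within groups, and that spread may be technical only. In bulk tissue, fewer cells of a type and less RNA per cell cannot be told apart.

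Magnocellular neurons of the SON and PVN make vasopressin or oxytocin, package them with their carrier proteins into dense-core granules, and send these down axons in the pituitary stalk to the posterior pituitary. A stalk lesion cuts those axons. It is known for an early injury response in the nuclei, and for a later phase in which part of the cut neurons are lost while others regrow processes. The files give genes by ID and do not pair IDs with symbols, and 0 of the IDs matched the rat gene table used, which had 47357 rows. The members are therefore described by their levels, courses and spread, with 4 given by ID. Their functions, the tissue's cell type markers and the sequences of the members were not analysed here.

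Each library held between 13338433 and 21012998 counts, and all 1 d libraries except replicate 1 held fewer counts than any other library. Control replicates 1 and 3 bear most on which genes are members. Without Control replicate 1 the rule found 657 rows, which included 119 of the 153 members. Without Control replicate 3 it found 118 rows, with 100 of the members. Leaving out 7 d replicate 1 gave 237 rows, with 142 of the members, and 59 members met the rule whichever single library was left out.

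A Control mean of at least 5 CPM was reached by 12089 rows, and 591 of these lay at least 0.4 lower at 7 d than in Control. The distance to 1 d left 415 rows, and the demand that no 7 d library overlap the other 6 left 154. On the log2(CPM + 1) scale the member nearest to the limit against Control had a difference of -0.401, and the nearest row outside it had -0.398. Against 1 d the nearest member had -0.435 and the nearest row outside had -0.397. The lowest Control mean of a member was 5.23 CPM, and the nearest row under that limit had 4.65 CPM.

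Members covered a wide range of abundance. Their Control means ran from 5.23 to 451 CPM with a median of 23.3 CPM, against a median of 32.7 CPM for the 11934 other genes with a Control mean of at least 5 CPM. At 1 d the member means had a median of 30.7 CPM, and at 7 d of 14.3 CPM. The 7 d mean was between 16.3 and 75.2% of the Control mean, with a median of 66.8%. It was under 50% of the Control mean in 13 members, from 50 to 70% in 87 and over 70% in 53. The highest 7 d library lay a median of 11.03% under the lowest of the other 6 libraries, by less than 5% in 37 members and by more than 20% in 26. That lowest other library was a Control library in 128 members and a 1 d library in 25.

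In the test across all 17345 genes (quasi-likelihood test of edgeR, with p adjusted by Benjamini and Hochberg's method and called below 0.05), 24 of the 153 members were called lower at 7 d than in Control, where 0.179% of all genes tested were called lower, and 132 had a called fall from 1 d to 7 d, where 15.8% of all genes did. The rule used both contrasts, so these counts only describe the members. All 24 were also called against 1 d, and 21 members were called in neither comparison. Leaving out 1 library left 1 to 60 of the members called against Control, with 1 without Control replicate 2, 60 without Control replicate 1, and 4 each without 7 d replicates 1 and 2. DESeq2 called 77 of the members against Control. The share of 0.179% holds only for the edgeR fit of all 9 libraries. Shares of all genes called by DESeq2 or with a library left out are not given here. These counts of members therefore have no background to be set against.

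**Figure D1:**
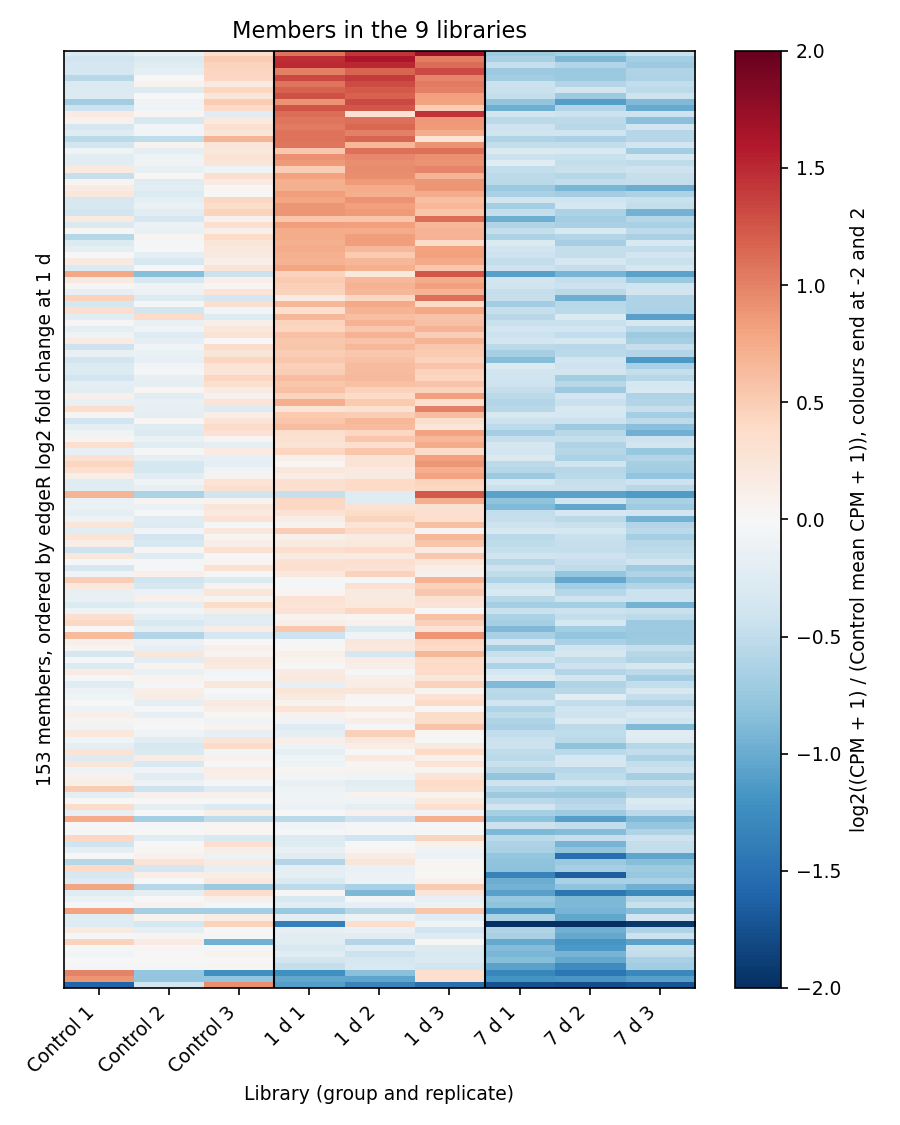
Each row is 1 of the 153 members and each column 1 library, with colour for log2((CPM + 1) / (Control mean CPM + 1)), red above and blue below the Control mean. The rows are ordered by the log2 fold change at 1 d: the 7 d columns are blue in all rows, while the 1 d columns run from red at the top to blue at the bottom.

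The 2 members with the lowest 7 d level relative to Control on the log2(CPM + 1) scale were ENSRNOG00000045653 and ENSRNOG00000046308. ENSRNOG00000045653 stood at 11.9, 11.1 and 20.3 CPM in Control, at 4.97, 18.5 and 13.6 CPM at 1 d and at 2.46, 2.59 and 3.04 CPM at 7 d, for replicates 1 to 3. Its 7 d libraries were close together and far below the rest, while 2 of the 1 d libraries lay within the Control range and replicate 1 lay below it. The group means were 14.4 ± 5.11, 12.3 ± 6.84 and 2.70 ± 0.305 CPM (SD, n = 3 each). It had the widest relative gap of all 153 members, with the highest 7 d library 38.8% under the lowest other library. At 7 d it was not called lower than Control (edgeR adjusted p = 0.0540), but it was called lower than at 1 d (edgeR adjusted p = 0.0103). The rule used both contrasts. The difference between 1 d and Control was smaller than its spread (-0.31 on the log2 scale, SE 0.417, edgeR adjusted p = 0.641), and its sign turned (0.071) without 1 d replicate 1.

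ENSRNOG00000046308 was the least abundant member at 1 d and 7 d, and its place rests on Control replicate 3. It had 21, 72 and 228 counts in the Control libraries, which is 1.04, 3.7998 and 10.9 CPM. At 1 d it had 33, 23 and 16 counts (1.91, 1.49 and 1.20 CPM) and at 7 d 16, 14 and 16 counts (0.856, 0.823 and 0.885 CPM). Control replicate 1 was below all 1 d libraries and only just above the 7 d ones. The log2 fold change at 1 d was -1.82 (SE 0.666), which was not called (edgeR adjusted p = 0.0848); DESeq2 called it (adjusted p = 0.0240), as did edgeR without Control replicate 1 (-2.30, adjusted p = 0.00495). Without Control replicate 3 the log2 fold change shrank to -0.74 (edgeR adjusted p = 0.276). This member was not called lower at 7 d against Control (edgeR adjusted p = 0.157) or against 1 d (edgeR adjusted p = 0.470), contrasts that the rule used.

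The contrast that the rule did not use directly was 1 d against Control. At 1 d, 53 of the 153 members were higher than in Control and 3 were lower (edgeR, adjusted p below 0.05), and 97 were not called. Of all genes tested 11.4% were called higher and 9.01% lower at 1 d, and of those with a Control mean of at least 5 CPM 11.6% and 12.5%, against 34.6 and 1.96% of the members. The rule bounds this contrast on one side, because a gene that had fallen at 1 d as far as at 7 d could not become a member, so the split between rises and falls is partly fixed by the choice. The members' median log2 fold change at 1 d was 0.25, with quartiles of 0.00 and 0.59, against -0.02 over all genes tested and -0.05 over the other genes with a Control mean of at least 5 CPM. A positive value was found in 115 members and a negative one in 38. The number called higher was 27 when Control replicate 2 was left out, 30 and 28 when 1 d replicate 1 or 2 was, and 34 in a fit of only Control and 1 d. Called higher whichever library was left out were 25 members. The sign stayed positive for all 53 in each of the 17 alternatives tried. In all 53 every 1 d library lay above every Control library, so leaving out 1 library could hardly turn the sign.

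The demand on 1 d was also dropped. With only Control and 7 d used (Control mean, difference and no overlap as in the rule), 225 rows were low at 7 d: the 153 members and 72 others. Of the 225, 53 were called higher at 1 d and 18 lower, which is 23.6 and 8%, and their median log2 fold change at 1 d was 0.05. Of all genes with a Control mean of at least 5 CPM, 11.6% were called higher at 1 d and 12.5% lower. A row low at 7 d whose 1 d libraries lie above Control meets the demand on 1 d almost by construction, so that the 53 called higher are all members says nothing more. Of the 18 called lower, 15 were not members. These rows share the Control libraries between the 7 d and the 1 d comparison, so their levels in the 2 comparisons are not independent.

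**Figure D2:**
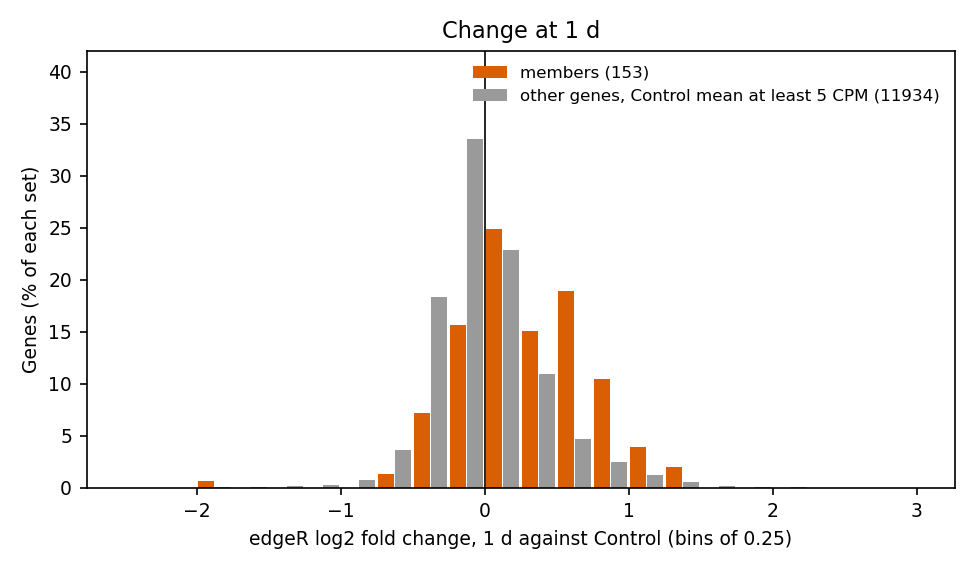
Bars give the share of genes (%) in bins of 0.25 of the edgeR log2 fold change at 1 d against Control, for the 153 members and the 11934 other genes with a Control mean of at least 5 CPM, of which 16 lie outside the range drawn. Members lie further to the right, with a median of 0.25 against -0.05; the rule keeps out genes with deep falls at 1 d.

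The 53 members that rose at 1 d were 1.31- to 2.65-fold higher than Control at that time, with a median of 1.63-fold, and 9 of them were called with a rise of at least 2-fold. That is 5.88% of the 153 members, near the 4.04% found over all genes tested. In all 53 the 3 libraries of 1 d lay above the 3 of Control, and this also held for 13 members that were not called. Together that made 66 of 153, or 43.1%, where 25.4% of all genes tested had 1 d wholly above Control. The opposite, 1 d wholly below Control, was found in 6 members (3.92%), where 12.9% of all genes tested showed it. These shares were not computed for genes with a Control mean of at least 5 CPM. The rule keeps out genes that fell at 1 d as far as at 7 d, so the members' shares are partly fixed by the choice. The median level of the 53 was 17.0 CPM in the Control group, 31.5 CPM in the 1 d group and 11.5 CPM in the 7 d group. At 7 d 3 of the 53 were called lower than Control, where 0.179% of all genes tested were. All 53 were called lower than at 1 d, where 15.8% of all genes tested were. The rule used both contrasts and the 53 were chosen as higher at 1 d, so these counts only describe them. The median log2 fold change of the 53 at 7 d against Control was -0.53.

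The 2 largest rises at 1 d among the members were those of ENSRNOG00000018094 and ENSRNOG00000011623, which are given by ID after their values were seen. ENSRNOG00000018094 stood at 12.5, 13.8 and 20.04 CPM in Control, at 33.8, 43.5 and 52.9 CPM at 1 d and at 9.10, 9.40 and 11.1 CPM at 7 d. The 3 groups did not overlap. Its log2 fold change at 1 d was 1.40 (SE 0.188, edgeR adjusted p = 0.00368), and it was called in each of the 17 alternatives (adjusted p 4.60e-10 to 0.0208). ENSRNOG00000011623 stood at 18.9, 20.4 and 36.2 CPM in Control, at 71.8, 79.5 and 52.0 CPM at 1 d and at 15.7, 13.05 and 15.3 CPM at 7 d. Here too the groups were apart, with Control replicate 3 well above the other controls. Its log2 fold change at 1 d was 1.35 (SE 0.249, edgeR adjusted p = 0.00970), and adjusted p over the 17 alternatives ran from 5.17e-07 to 0.0384.

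**Figure D3:**
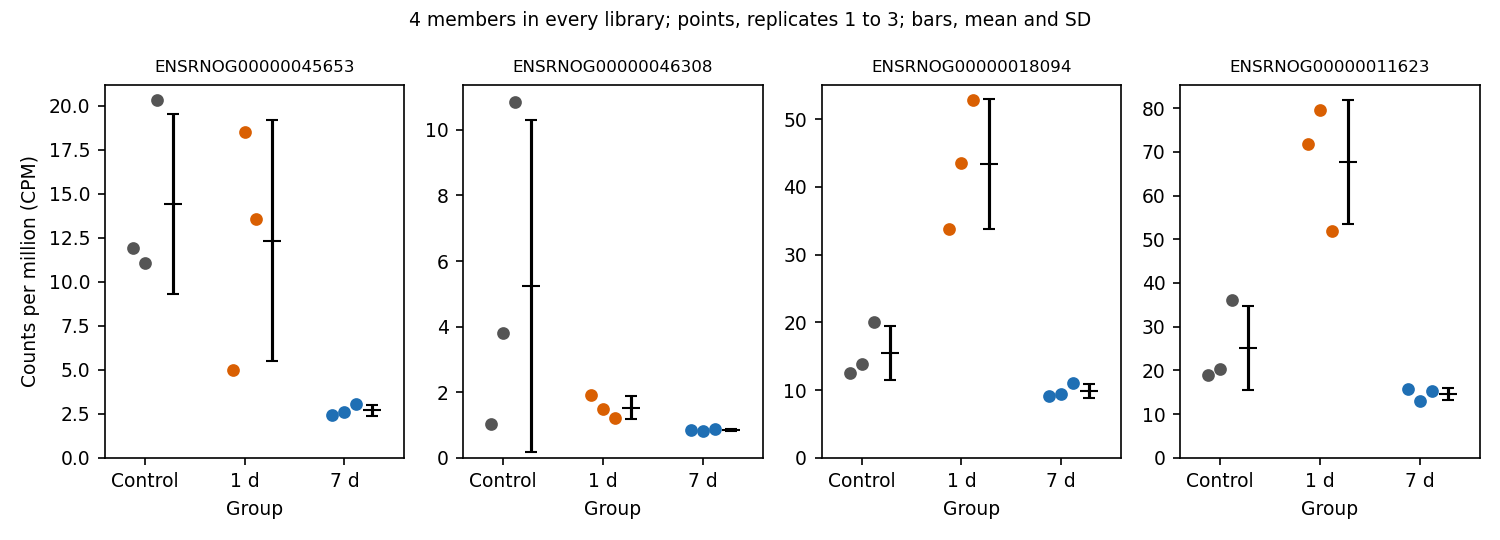
Points give CPM in each library for the 4 members given by ID, with replicates 1 to 3 from left to right in each group, and bars give the mean and SD of 3 libraries. The left pair have their lowest points at 7 d with no rise at 1 d, and the right pair rise at 1 d, to means of 43.4 and 67.7 CPM, and then stand below Control at 7 d.

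The 3 members that were already lower at 1 d were abundant to moderately abundant, with Control means from 38.9 to 451 CPM. The most abundant of all members was among them. It stood at 439, 446 and 468 CPM in Control, at 324, 364 and 350 CPM at 1 d and at 214, 188 and 278 CPM at 7 d. Its libraries thus formed 3 steps down with no overlap, and the log2 fold change at 1 d was -0.47 (SE 0.120, edgeR adjusted p = 0.0234). The other two had log2 fold changes at 1 d of -0.42 each (edgeR adjusted p = 0.0147 and 0.0316). The number of members called lower at 1 d was 0 without 1 d replicate 1, 1 without Control replicate 2 or 1 d replicate 2 or 3, and 5 without 7 d replicate 2 or 3.

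The 97 members not called at 1 d had a median log2 fold change of 0.11 at that time, with a range of -1.82 to 0.92, and 62 of them were above 0. An abundant member of this group, the one with the smallest adjusted p at 7 d against Control, shows a course that was flat up to 1 d. It stood at 244, 250 and 257 CPM in Control, at 243, 246 and 243 CPM at 1 d and at 134, 137 and 164 CPM at 7 d. Its Control and 1 d libraries overlapped, and the highest 7 d library was 32.5% under the lowest of them. The difference at 1 d was -0.12 (SE 0.0750, edgeR adjusted p = 0.278). The member most abundant at 1 d stood at 382, 454 and 440 CPM in Control, at 521, 485 and 528 CPM at 1 d and at 289, 318 and 315 CPM at 7 d. All its 1 d libraries were above Control, but the log2 fold change of 0.18 was not called (SE 0.0683, edgeR adjusted p = 0.0841). Of the 24 members called at 7 d against Control, a contrast that the rule used, 18 were in this group.

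**Figure D4:**
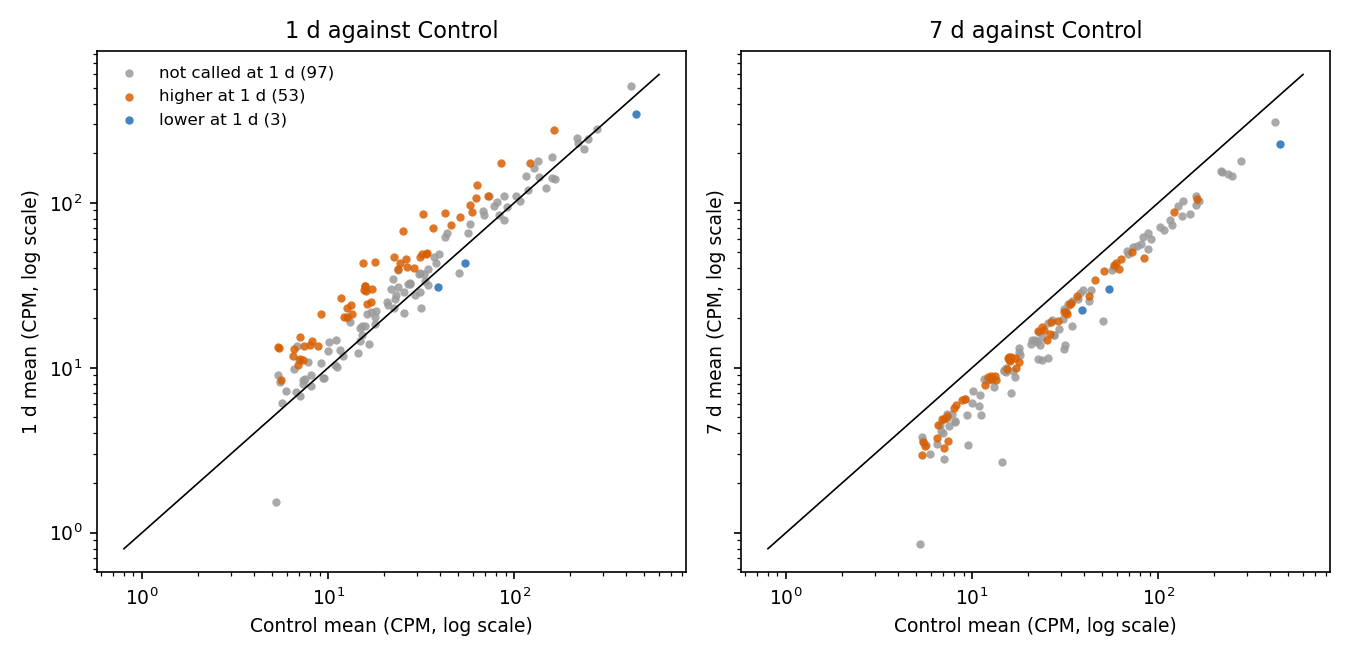
Each point is 1 of the 153 members, with its Control mean (CPM, log scale) on the horizontal axis and its mean at 1 d (left) or 7 d (right, both CPM, log scale) on the vertical axis; the line marks equal levels and colour the call at 1 d. At 1 d the points lie on both sides of the line and at 7 d all lie under it, as the rule demands, at 16.3 to 75.2% of Control.

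The members were also set out by abundance, with no test of a difference between the ranges. Of the 34 members with a Control mean of 5 to 10 CPM, 14 were called higher at 1 d (41.2%), and of the 79 members from 10 to 50 CPM 30 were (38.0%). From 50 to 100 CPM 7 of 20 were called higher (35.0%), and above 100 CPM 2 of 20 (10%). The shares in the other genes of the same ranges were 14.1, 13.4, 8.54 and 6.51%, which fell along the same ranges. The members' median log2 fold change at 1 d was 0.51, 0.29, 0.27 and -0.02 in the 4 ranges, and 0.06, -0.03, -0.08 and -0.13 in the other genes. Of the 24 members called at 7 d against Control, 12 were among the 20 above 100 CPM. The rule used that contrast, and the shares of other genes called at 7 d in these ranges were not computed. The count therefore only describes the members.

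The spread between replicates was wider in the members than in other genes. The rule sets no direct limit on that spread. Its demand of no overlap bounds how far a 7 d library may lie up and how far a Control or 1 d library may lie down. It also uses group means, which 1 high library can lift. The spread and the order of the Control libraries below are thus partly fixed by the choice and only describe the members. Members also had a lower median Control mean than the other genes (23.3 against 32.7 CPM). The median coefficient of variation was 19.1% in Control, 12.3% at 1 d and 9.40% at 7 d, against 10.2, 7.30 and 6.93% in the other genes with a Control mean of at least 5 CPM. The variation had a shape: within Control, replicate 3 was the highest library in 91 members, replicate 1 in 48 and replicate 2 in 14. That is 59.5, 31.4 and 9.15%, against 42.2, 31.0 and 26.9% of the other genes.

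The 48 members that were highest in Control replicate 1 were, in 45 cases, also highest in 1 d replicate 3 among the 1 d libraries. This is 93.8%, where 50.3% of the other genes highest in Control replicate 1 had their highest 1 d level in replicate 3. Of the 91 members highest in Control replicate 3, 28 were highest in 1 d replicate 3 and 44 in 1 d replicate 2. These shares of 30.8 and 48.4% stood beside 29.9 and 38.9% of the other genes highest in Control replicate 3. In 14 members Control replicate 1 was at least 1.5-fold above both other controls, and in 12 of these 1 d replicate 3 was at least 1.5-fold above both other 1 d libraries. The same held for 101 of 318 other genes, or 31.8%. Replicate numbers carry no order, and these libraries belong to different groups. The rule sets a limit on the 1 d mean as well as on the Control mean, and 1 high library can lift either mean. The order of the 1 d libraries in the members is thus also partly fixed by the choice. The differences from the other genes therefore only describe the members.

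Of these 14 members, the one with the largest ratio of Control replicate 1 to the next Control library stood at 101, 29.2 and 21.03 CPM in Control, at 20.99, 27.8 and 63.1 CPM at 1 d and at 19.8, 17.9 and 20.1 CPM at 7 d. Only Control replicate 1 and 1 d replicate 3 were far above the 7 d level, while Control replicate 3 and 1 d replicate 1 stood just above the highest 7 d library. A second such member stood at 59.0, 17.8 and 17.8 CPM in Control, at 14.8, 14.6 and 40.0 CPM at 1 d and at 13.3, 13.5 and 14.3 CPM at 7 d. None of the 14 was called at 1 d by edgeR (adjusted p from 0.236 to 0.933, 0 with an unadjusted p below 0.05) or by DESeq2. Without Control replicate 1, 16 of the 48 members highest in it still met the rule, and the number was also 16 when 1 d replicate 3 was left out as well. Of the 91 members highest in Control replicate 3, 40 met the rule without that library. Which cells or steps set these 2 libraries apart was not tested.

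**Figure D5:**
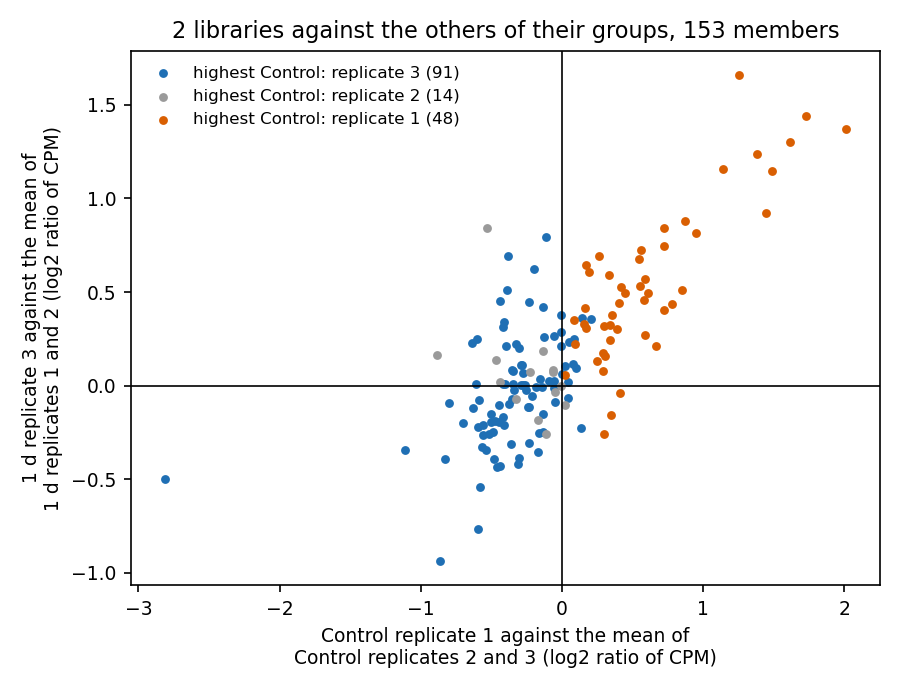
Each point is 1 of the 153 members. The horizontal axis gives Control replicate 1 against the mean of the other controls and the vertical axis 1 d replicate 3 against the mean of the other 1 d libraries, both as log2 ratios of CPM, with colour for the Control library in which the member was highest. The 48 members highest in Control replicate 1 lie mostly in the upper right, where both libraries stand above the others of their groups.

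The sets were split by Control values, which enter both the rule and the comparison of 1 d with Control, so their calls at 1 d are a description. Among the 91 members highest in Control replicate 3, 43 were called higher at 1 d, and the median log2 fold change was 0.47. Of the 48 highest in Control replicate 1, 10 were called higher, and the median was 0.19. The shares called higher were thus 47.3 and 20.8%, where 22.8 and 1.95% of the other genes highest in the same Control libraries were called higher. None of the 14 highest in Control replicate 2 was called at 1 d by edgeR, where 5 had an unadjusted p below 0.05, and DESeq2 called 1. Of the other genes highest in that library, 4.09% were called higher. These 14 had the smallest spread in Control, a median coefficient of variation of 8.45%, and 8 of them were called at 7 d against Control, compared with 14 of the 91 and 2 of the 48. The rule used that contrast, and the Control values that split the sets also enter its test. Shares of other genes called at 7 d were not computed for these sets, so the counts only describe them. In the 59 members that met the rule whichever library was left out, 15 were called higher at 1 d (25.4%) and 2 lower. Of all genes with a Control mean of at least 5 CPM, 11.6% were called higher at 1 d and 12.5% lower. The median log2 fold change of the 59 at 1 d was 0.18. At 7 d, 19 of the 59 were called lower than Control, where 0.179% of all genes tested were, but the rule that kept them used this contrast.

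Taken as a sum, the members held 0.725, 0.693 and 0.777% of the counts in Control, 0.851, 0.880 and 0.932% at 1 d and 0.470, 0.464 and 0.496% at 7 d. The 3 groups did not overlap, which the rule fixes for 7 d. IDs outside Ensembl's naming made up 3 of the 153 members, or 1.96%, and 3.35% of the other genes with a Control mean of at least 5 CPM.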

How the data were processed

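Per the submitters' processing notes, reads were handled with featureCounts (version 1.5.0-p3), HISAT2 (2.0.5) and DESeq2 (1.16.1). Build, annotation and strand setting: not given in the sources used here. Reads of overlapping, antisense or near-identical genes may therefore be mixed. The authors deposited 1 table of raw counts per gene for 9 libraries, with 34784 rows. Groups were taken from the library titles. CPM values use library totals. The rule for members and a pseudocount of 1 are given in the text; members and lists were chosen with earlier results of these data known. For tests, edgeR's filterByExpr kept 17345 genes, all members among them, and TMM factors (0.948 to 1.06) scaled the libraries. One quasi-likelihood fit (robust) of all 9 libraries had group as its only term; p-values were two-sided and Benjamini-Hochberg adjusted over all genes, and SEs were derived from the F statistic. The versions were R 4.3.3, edgeR 4.0.16 and DESeq2 1.42.0. Counts were also simulated for 1 d against Control (17152 genes), with 5 false calls. Changes of 1.5-fold were found in 36.0% of 75 genes, of 2-fold in 61.3% of 62 and of 4-fold in 82.0% of 61. Far fewer genes were changed there than the 3540 called at 1 d in the data, which bears on the adjusted p. These shares therefore do not give the recovery in the data. No pair of replicate libraries agreed within sampling noise (chi-square per degree of freedom 6.80 to 38.1). The 34 gene lists and the marker lists among them needed symbols and were not tested. The rule for genes given by name took, with no symbols, the 2 IDs lowest at 7 d against Control. Alternatives were other scalings, filters, DESeq2, fits of 2 groups, a replicate block, other limits of the rule and each library left out.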

Additional observations from a re-analysis of the deposited data

How the results depend on the processing

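Members are set by thresholds and few libraries. The rule found 153 rows as given, 265 with a limit of -0.3, 86 with -0.5, 666 with both Control replicate 1 and 1 d replicate 3 left out (an alternative chosen after seeing the data), and 118 to 657 with 1 library left out; scaling, pseudocount and Control minimum kept it at 119 to 200. Members called at 1 d against Control numbered 56, and 28 to 66 with 1 library left out; higher 53, 34 in a fit of the 2 groups and 27 to 62 with 1 left out; lower 3, 1 with library totals as the only scaling, 5 in a fit of the 2 groups and 0 to 5 with 1 left out. Members called at 7 d against Control numbered 24, 77 by DESeq2, 6 in a fit of the 2 groups and 1 to 60 with 1 left out. Shares of all genes called at 7 d against Control in these alternatives are not given here. Members called at 7 d against 1 d numbered 132, and 112 to 136 with 1 left out. ENSRNOG00000045653 at 1 d had a log2 fold change of -0.31, and between -0.75 (without 1 d replicate 2) and 0.071 (without 1 d replicate 1) with 1 library left out. With replicate number as a block, 43 members were called at 1 d, 13 at 7 d against Control and 124 at 7 d against 1 d. Same-numbered libraries showed no strong shared deviation (correlations of deviations -0.155 to 0.0351). A weak pairing, or one that touches few genes, would not be seen in these correlations. Where a count moved, the cause was not tested.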

Other observations

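The same rule was applied with another group as the extreme one, keeping the Control minimum and the limit of 0.4. It found 153 rows lowest at 7 d, 118 highest at 7 d, 263 lowest at 1 d, 1450 highest at 1 d, 93 lowest in Control and 16 highest in Control. All these counts share the same 9 libraries.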
